A study of Mus musculus with 12 samples.

Results

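Direct Notch target genes are genes whose promoters or enhancers the cleaved Notch receptor acts on together with its DNA-binding partner RBPJ. The 8 genes described here, *Hes1*, *Hes5*, *Hey1*, *Heyl*, *Dtx1*, *Nrarp*, *Myc* and *Dusp6*, were taken by name from a table of 32285 genes, and each name matched 1 row. The table holds RNA sequencing of progenitors sorted from the bone marrow (BM) of wild-type C57BL/6J mice, for which the labels name no transgene, deletion or treatment. The 12 libraries form 4 groups of 3. They come from lymphoid progenitors that lack the B-lineage marker Ly6d (Ly6d- common lymphoid progenitors, CLPs) and from the less committed Flk2+ multipotent progenitors (MPPs), each from mice of 1 month (1MO) and 3 months (3MO) of age. The repeats of a group were independent experiments, so the p-values given here measure the spread between experiments.

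A Notch receptor that binds a Delta or Jagged ligand on a neighbouring cell is cut by proteases, and its intracellular part enters the nucleus, where it joins RBPJ and a Mastermind coactivator and switches corepression to activation. The *Hes* and *Hey* genes encode basic helix-loop-helix repressors and are the best known direct targets. *Dtx1* and *Nrarp* encode regulators that act back on the pathway, *Myc* encodes a transcription factor of growth and proliferation, and *Dusp6* encodes a phosphatase that switches off the ERK kinases. In the BM and thymus, Notch1 signals direct lymphoid progenitors to the T lineage and away from the B lineage.

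On the GRCm38 build, *Hes1* (ENSMUSG00000022528) is at chr16:30064384-30067796, *Hes5* (ENSMUSG00000048001) at chr4:154960923-154962371, *Heyl* (ENSMUSG00000032744) at chr4:123233556-123249875 and *Hey1* (ENSMUSG00000040289) at chr3:8663359-8667256. *Nrarp* (ENSMUSG00000078202) is at chr2:25180758-25183339, *Dtx1* (ENSMUSG00000029603) at chr5:120680202-120711927, *Myc* (ENSMUSG00000022346) at chr15:61985391-61990374 and *Dusp6* (ENSMUSG00000019960) at chr10:99263231-99267489. All are protein-coding, and the values count reads over their exons. *Hes5* overlaps Gm20421 and *Nrarp* overlaps the antisense gene Gm38287 on the opposite strand. The library kit keeps the strand, but the sources used here do not say whether the counting used it, so reads of these pairs cannot be told apart.

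RefSeq promoter sequences (GRCm38.p6) were at hand for 4 of the 8 genes, *Hes5*, *Nrarp*, *Dusp6* and *Dtx1*. The 250 bases before the start of 3 of them are printed because they differ in which of 2 motifs they hold, the RBPJ core, the E-box or neither. Capitals mark the core RBPJ motif TGGGAA, read on either strand (TTCCCA on the other), and the palindromic E-box CACGTG, to which Myc and some Hes-type proteins bind.
Hes5 (chr4:154960673-154960922, plus strand): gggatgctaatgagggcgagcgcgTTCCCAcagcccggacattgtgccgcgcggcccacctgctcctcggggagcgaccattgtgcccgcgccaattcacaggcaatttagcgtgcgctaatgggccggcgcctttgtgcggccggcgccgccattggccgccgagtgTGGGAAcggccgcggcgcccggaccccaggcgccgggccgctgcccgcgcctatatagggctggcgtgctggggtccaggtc
Nrarp (chr2:25180508-25180757, plus strand): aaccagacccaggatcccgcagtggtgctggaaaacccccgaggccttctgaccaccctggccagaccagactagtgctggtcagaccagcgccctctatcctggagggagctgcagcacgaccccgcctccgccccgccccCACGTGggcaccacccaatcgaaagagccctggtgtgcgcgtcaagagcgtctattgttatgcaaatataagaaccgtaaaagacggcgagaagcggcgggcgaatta
Dusp6 (chr10:99262981-99263230, plus strand): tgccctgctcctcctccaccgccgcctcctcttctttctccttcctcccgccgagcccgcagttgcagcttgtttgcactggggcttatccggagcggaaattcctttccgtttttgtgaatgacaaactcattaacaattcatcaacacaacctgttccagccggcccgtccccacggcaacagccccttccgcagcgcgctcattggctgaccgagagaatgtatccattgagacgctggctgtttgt
The *Hes5* window held 2 cores, TGGGAA at 82 and TTCCCA at 226 bases before the start. The *Nrarp* window held no core and 1 E-box at 108 bases before the start, and the *Dusp6* and *Dtx1* windows held neither. The starts are those of RefSeq, and the *Dtx1* window (chr5:120711670-120711919, minus strand) lies within the gene span given above. Of 32851 promoter windows of this length, 21.6% held the RBPJ core and 6.02% the E-box. A match describes the letters only, and enhancers were not searched.

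Between 8889083 and 20677785 estimated counts were held by a library (median 13208993), and no 2 libraries of a group were identical. Most defining markers separated the sorted populations as labelled. *Il7r*, the interleukin-7 receptor of lymphoid progenitors, was at 299 to 402 counts per 1000000 counts (CPM) in CLPs and 5.24 to 18.6 CPM in MPPs, and 8 of the 12 lymphoid progenitor markers were higher and 2 lower in CLPs, where edgeR called 13.3% of all tested genes in either direction. Of 12 multipotent progenitor markers, 8 were lower in CLPs, among them *Hlf* (log2 fold change -3.80), and 1 was higher, beside the same 13.3%. *Ly6d*, against which the CLPs were sorted, was at 1.03 to 7.26 CPM in them and at 0 to 2.25 CPM in MPPs, and was higher in CLPs (log2 fold change 3.54, adjusted p = 0.0139, edgeR). In bulk RNA, fewer cells of a type and less RNA per cell cannot be told apart.

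The 8 target genes fell into 3 tiers by their mean level over the 12 libraries. *Myc* and *Dusp6* were abundant, *Nrarp*, *Hes1* and *Hes5* were scarce, and *Dtx1*, *Hey1* and *Heyl* were at or close to 0. In 1MO MPPs *Hes1* too was close to 0, with 0, 2 and 7 counts. Per kilobase of exon, the mean over the 12 libraries was 93.1 ± 11.4 CPM per kb for *Myc* and 23.3 ± 6.06 for *Dusp6* (SD, n = 12), which was above 98.1% and 85.4% of the tested genes. *Nrarp* was at 1.73 ± 0.830, *Hes1* at 0.789 ± 0.924, *Hes5* at 0.725 ± 0.542 and *Dtx1* at 0.0456 ± 0.148 CPM per kb. *Nrarp*, *Hes1* and *Hes5* overlapped one another in their ranges, whereas the lowest *Myc* library (74.8 CPM per kb) was above the highest *Dusp6* library (32.6) and the lowest *Dusp6* library (13.0) was above the highest *Nrarp* library (3.03). *Hes1*, *Hes5*, *Nrarp*, *Myc* and *Dusp6* passed the filter on low counts and were tested. A gene can pass that filter through 1 group alone.

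**Figure D1:**
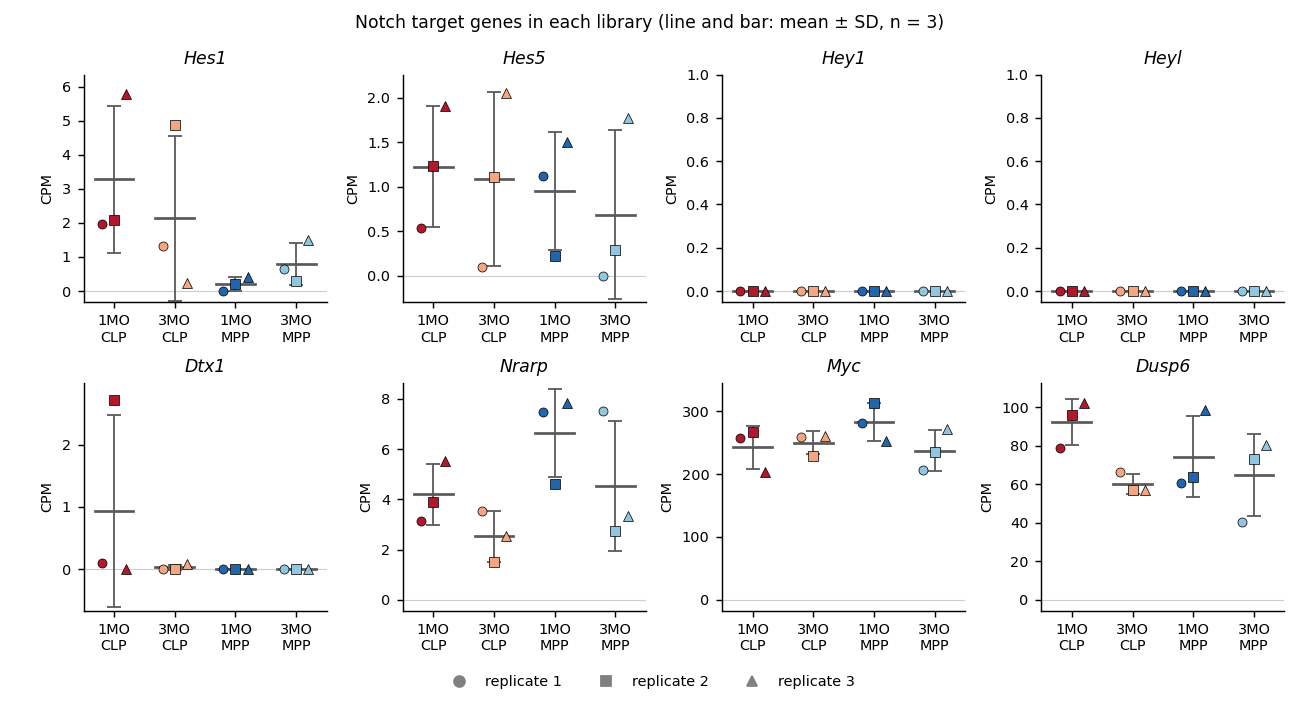
CPM after scaling for depth of the 8 Notch target genes (1 panel each, linear axes) in the 12 libraries, with the mean and SD of each group of 3 in grey and the replicate number as the symbol. *Hey1* and *Heyl* are at 0 throughout, *Dtx1* stands at 2.72 CPM in 1 library of 1MO CLPs, and *Dusp6* is the gene whose 1MO and 3MO CLP libraries do not overlap.

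In the quasi-likelihood test of edgeR, no tested target gene reached an adjusted p under 0.05 between the ages or the cell types. For age in CLPs, 0 of 5 genes passed, where 0.0748% of all 13367 tested genes did (10 genes), and *Dusp6* was the 1 gene of the 5 with an unadjusted p under 0.05 (5.9% of all genes). For age in MPPs, 0 of 5 passed at either level, beside 0.0224% of all genes at the adjusted and 3.48% at the unadjusted level. The difference between the age effects in the 2 cell types was not called for any of the 5 genes or for any of the 13367 (0%), and 0 of the 5 against 3.21% of all genes had an unadjusted p under 0.05. For CLPs against MPPs, 0 of 5 passed against 13.3% of all genes, and *Hes1* was the 1 gene with an unadjusted p under 0.05 (24.7% of all genes). With DESeq2, 0 of the 5 passed in the 3 comparisons of age, beside 0.427%, 0.245% and 0.045% of all genes, and 1, *Hes1*, passed between the cell types, beside 16.9%. *Hes1* reached the level of the low-count filter in 5 CLP libraries and 1 MPP library, so its direction between the cell types is read with that limit. In CLPs, 4 of the 5 log2 fold changes from 1MO to 3MO were below 0, with a median of -0.60, beside 51.2% of all genes and a median of -0.01. In MPPs, 4 of the 5 were also below 0, with a median of -0.25, beside 51.8% of all genes and a median of -0.01.

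**Figure D2:**
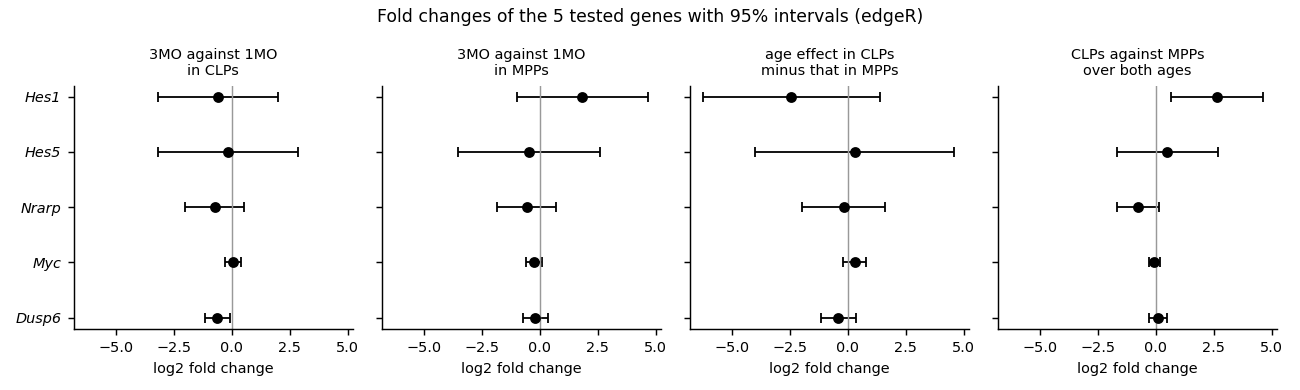
Log2 fold changes of the 5 tested genes (rows) with 95% intervals from edgeR in the 4 comparisons (panels, one shared axis). The intervals of *Hes1* and *Hes5* are several log2 units wide and those of *Myc* are narrow, and 2 intervals leave out 0, *Dusp6* for age in CLPs and *Hes1* for CLPs against MPPs, both with adjusted p-values above 0.05.

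*Hes1*, the repressor used most often as a readout of Notch activity, was detected mainly in CLPs. Its levels in 1MO CLPs were 1.98, 2.08 and 5.77 CPM, from 22, 42 and 91 counts, and in 3MO CLPs 1.31, 4.87 and 0.237 CPM, from 13, 88 and 3 counts. In MPPs they were 0, 0.220 and 0.422 CPM at 1MO and 0.634, 0.288 and 1.49 CPM at 3MO, from 0 to 21 counts. All 3 libraries of 1MO CLPs lay above all 3 of 1MO MPPs, as for 11.1% of all tested genes, while at 3MO the cell types overlapped. The 3MO CLP libraries spread over most of the range of the gene, which was 0 to 5.77 CPM over the 12 libraries. The gene reached the level of the low-count filter (0.757 CPM) in 5 CLP libraries and 1 MPP library, so it was kept mainly through the cell type where it was higher, and its value between the cell types is read with that limit. Across both ages, its fitted level in CLPs was 6.18-fold that in MPPs (log2 fold change 2.63, standard error 0.93, 95% interval 0.65 to 4.61), with an adjusted p of 0.0797 in edgeR and 0.0134 in DESeq2, and between 0.0134 and 0.245 over all alternatives. With no filter it was 0.0677 in edgeR. Without the second library of 3MO CLPs it was 1.89 (adjusted p = 0.245, edgeR). The change with age was -0.60 in CLPs (interval -3.18 to 1.97, adjusted p = 0.979, edgeR) and 1.84 in MPPs (interval -0.99 to 4.66, adjusted p = 1). The value in CLPs turned with single libraries, to 0.08 without the third library of 1MO CLPs and to -2.08 without the second of 3MO CLPs.

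*Hes5*, another Hes repressor, was as scarce and did not order by group. It was at 0.540, 1.24 and 1.90 CPM in 1MO CLPs and 0.101, 1.11 and 2.06 CPM in 3MO CLPs. In MPPs it was at 1.13, 0.220 and 1.51 CPM at 1MO and 0, 0.288 and 1.77 CPM at 3MO. The 4 groups overlapped throughout, and the highest count in any library was 30. The log2 fold change with age was -0.17 in CLPs (interval -3.20 to 2.86) and -0.46 in MPPs (interval -3.53 to 2.61), and edgeR gave adjusted p-values of 0.996 and 1. Intervals of this width cover changes of several fold in either direction, so no change was detectable with these libraries. Within 3MO MPPs alone they held 0, 4 and 25 counts. The difference between CLPs and MPPs was 0.50 (interval -1.66 to 2.66, adjusted p = 0.831, edgeR).

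*Hey1* and *Heyl*, repressors that respond to Notch in vessel walls and smooth muscle, had 0 counts in all 12 libraries. A count of 0 over all libraries allows up to 3 counts, or 0.0184 CPM, which covers counting error only. Most other genes of the family were also near 0. *Hes3* and *Helt* had no count, and *Hes2*, *Hes7* and *Hey2* were at most at 0.543, 0.450 and 0.110 CPM, while the related *Bhlhe40* and *Bhlhe41* reached 5.38 and 1.93 CPM. *Hes6*, which encodes a Hes-type protein that counteracts *Hes1*, was the exception, at 76.3 ± 16.5 and 58.9 ± 6.05 CPM in 1MO and 3MO CLPs and 24.0 ± 7.91 and 24.4 ± 7.82 CPM in the MPPs (SD, n = 3). It was higher in CLPs (log2 fold change 1.47, standard error 0.20, adjusted p = 0.00013, edgeR), and was the 1 called gene of the 2 tested from this list of 8, beside 13.3% of all tested genes. It was at -0.38 with age in CLPs (interval -0.97 to 0.22, adjusted p = 0.917). The 8 pericyte and smooth muscle markers summed to 52.2 to 121 CPM, nearly all of it *Pdgfrb* at 51.7 to 121 CPM, while *Rgs5*, *Myh11* and *Des* had 0 counts in all libraries. The 12 endothelium markers summed to 270.5 to 419 CPM, mostly *Pecam1* (121 to 299 CPM) and *Egfl7* (55.5 to 146 CPM), while *Cdh5* was at most at 1.78 CPM and *Sox17* at 0 in all libraries.

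*Dtx1*, a Deltex ubiquitin ligase that binds the Notch intracellular domain, was present in 1 library. Its rounded counts were 1, 55 and 0 in 1MO CLPs and 0, 0 and 1 in 3MO CLPs, which is 0.0899, 2.72 and 0 CPM against 0, 0 and 0.0791 CPM. All 6 MPP libraries had 0 counts, which allows up to 0.0397 CPM over them together. It did not pass the filter. In a fit of all 17730 genes with a count, its log2 fold change with age in CLPs was -4.79 (adjusted p = 0.793, edgeR), and this value rested on the second library of 1MO CLPs. Of its relatives, *Dtx4* was 155.8 ± 15.2 CPM in 1MO CLPs and 31.1 ± 11.7 CPM in 1MO MPPs (SD, n = 3) and was higher in CLPs over both ages (log2 fold change 2.17, standard error 0.21, adjusted p = 4.52e-06, edgeR). *Dtx2* was also higher in CLPs (0.77, adjusted p = 0.0134) and *Dtx3* lower (-0.76, adjusted p = 0.00182).

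*Nrarp*, which encodes a small ankyrin repeat protein that binds the Notch complex and promotes its loss, was detected in every library. It was at 3.15, 3.90 and 5.52 CPM in 1MO CLPs and at 3.53, 1.49 and 2.53 CPM in 3MO CLPs. In MPPs it was at 7.47, 4.61 and 7.83 CPM at 1MO and 7.51, 2.73 and 3.33 CPM at 3MO. By group mean, 1MO MPPs were highest (6.64 ± 1.77 CPM), followed by 3MO MPPs (4.52 ± 2.60), 1MO CLPs (4.19 ± 1.21) and 3MO CLPs (2.52 ± 1.02; SD, n = 3), and each neighbour in this order overlapped the next. The change with age was -0.74 in CLPs (interval -2.03 to 0.55, adjusted p = 0.921, edgeR) and -0.56 in MPPs (interval -1.83 to 0.71, adjusted p = 1). The age effects differed by -0.18 (interval -1.98 to 1.61, adjusted p = 1). Between the cell types *Nrarp* was at -0.75 in CLPs against MPPs (interval -1.66 to 0.15, adjusted p = 0.307, edgeR).

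*Myc* was abundant in every library and varied little. Its levels were 258, 266 and 203 CPM in 1MO CLPs, 259, 228 and 261 CPM in 3MO CLPs, 282, 313 and 253 CPM in 1MO MPPs, and 207, 235 and 271 CPM in 3MO MPPs. The 4 groups overlapped, and all values lay within a range of 203 to 313 CPM. The log2 fold change with age was 0.04 in CLPs (standard error 0.16, interval -0.30 to 0.38, adjusted p = 0.992, edgeR) and -0.25 in MPPs (interval -0.59 to 0.09, adjusted p = 1). CLPs and MPPs differed by -0.07 (interval -0.32 to 0.17, adjusted p = 0.766). For this gene the depth left narrow intervals, from 1955 to 5389 counts per library.

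Between the cell types, 2 of 11 partners and rivals of *Myc* were called, beside 13.3% of all tested genes. The paralog *Mycl* was higher in CLPs (log2 fold change 3.69, standard error 0.46, adjusted p = 5.19e-05, edgeR) and *Mycn* lower (-0.84, standard error 0.15, adjusted p = 0.00102), while 9 were not called. *Mycn* was at 90.7 ± 18.1 CPM in 1MO MPPs, above the 38.3 ± 4.75 CPM of 3MO MPPs, the 27.2 ± 4.09 CPM of 1MO CLPs and the 39.9 ± 1.26 CPM of 3MO CLPs. Its change with age was -1.24 in MPPs (standard error 0.21, adjusted p = 0.0777, edgeR) and 0.55 in CLPs (adjusted p = 0.777), and the difference between them had an adjusted p of 0.237. DESeq2 called *Mycn* for age in MPPs and for the difference of the age effects. Of 22 growth genes that respond to Myc, such as nucleolar *Ncl* and *Npm1* and the pyrimidine enzyme *Cad*, 0 were called by edgeR or by DESeq2 in any of the 4 comparisons. At an unadjusted p under 0.05 the counts were 0, 0, 1 and 0, beside 5.9%, 3.48%, 3.21% and 24.7% of all genes, the 1 being *Cad* in the difference of the age effects.

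*Dusp6* was the 1 tested target gene whose CLP libraries separated by age, without passing the adjusted threshold. In 1MO CLPs it was at 78.9, 95.8 and 102 CPM and in 3MO CLPs at 66.3, 56.9 and 57.3 CPM, and every 3MO library lay below every 1MO library. Groups separated in this direction for 6.13% of all tested genes. In MPPs it was at 60.6, 63.8 and 98.6 CPM at 1MO and 40.6, 73.2 and 80.4 CPM at 3MO, and the ages overlapped. The interval of the log2 fold change in CLPs was -1.15 to -0.08, with an unadjusted p of 0.0263 and an adjusted p of 0.792 in edgeR, the 441st smallest p of 13367. Over all alternatives the value stayed between -0.79 and -0.51, and the adjusted p between 0.325 and 1. The change in MPPs was -0.20 (interval -0.73 to 0.34, adjusted p = 1), and the age effects differed by -0.42 (interval -1.18 to 0.34, adjusted p = 1), so a larger change in CLPs was not shown. Between the cell types *Dusp6* was at 0.10 (interval -0.28 to 0.48, adjusted p = 0.8).

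The summed levels of some marker lists separated between the same 1MO and 3MO CLP libraries as *Dusp6*. The 11 bone stroma markers summed to 218 to 607 CPM in 1MO CLPs and to 7.16 to 11.3 CPM in 3MO CLPs, with 2 of the 6 tested lower at 3MO, the collagen genes *Col1a1* (log2 fold change -8.75, adjusted p = 0.0337, edgeR) and *Col1a2* (-7.52, adjusted p = 0.00378), beside 0.0748% of all genes called. The sums in 1MO CLPs were mostly *Col1a1* and *Col1a2*, at up to 400 and 168 CPM in a library, with *Sparc* next at up to 22.3 CPM. None of the 11 was at 0 in all libraries. In MPPs the 11 summed to 13.7 to 83.1 CPM at 1MO and 7.37 to 16.1 CPM at 3MO. The 10 B lineage markers summed to 379 to 548 CPM at 1MO and 220 to 289 CPM at 3MO, with *Rag1* lower of 9 tested. *Rag1*, which is also among the lymphoid progenitor markers, made up to 326 CPM of these sums in a library. Of the 9, 8 were below 0 with age, beside 51.2% of all genes, and *Blnk* was at 0.22 (adjusted p = 0.937, edgeR). The 7 plasmacytoid dendritic markers summed to 1728 to 1790 CPM at 1MO and 1522 to 1565 CPM at 3MO, with 0 of 6 tested called by edgeR or DESeq2 and 0 at an unadjusted p under 0.05, and to 486 to 730.1 CPM in the MPPs. The dendritic sums were mostly *Irf8* and *Tcf4*, at up to 897 and 842 CPM in a library. The sums of the other 7 marker lists overlapped between the ages in CLPs. The part of bone stroma, B lineage or plasmacytoid dendritic cells in the *Dusp6* values was not tested.

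Genes that, like *Dusp6*, rise with ERK activity and act back on it were examined beside it. For age in CLPs, 0 of the 12 tested of 16 were called by edgeR or DESeq2 and 1, *Spred3*, had an unadjusted p under 0.05 (log2 fold change 0.71, adjusted p = 0.843), beside 0.0748% and 5.9% of all genes. Of these 12, 10 were below 0, beside 51.2% of all genes, with a median of -0.18 beside -0.01 for all genes. *Spry1* was at 8.86 ± 0.629 CPM in 1MO and 5.15 ± 2.23 CPM in 3MO CLPs, and *Spry2* at 19.1 ± 1.65 and 12.2 ± 5.78 CPM (SD, n = 3), with adjusted p-values of 0.896 for both genes. Between the cell types 1 of the 12 was higher and 3 were lower in CLPs, beside 13.3% of all tested genes called in either direction. The higher gene was *Dusp7*, a phosphatase closely related to *Dusp6* (log2 fold change 1.03, standard error 0.13, adjusted p = 5.06e-05), and the lower ones were *Ier3* (-1.86), *Egr1* (-1.45) and *Spred1* (-0.40). DESeq2 also called *Etv5* (0.44 and adjusted p = 0.0736 in edgeR). The interval for *Dusp7* was 0.76 to 1.31, beside -0.28 to 0.48 for *Dusp6*, and the difference of the genes was not tested.

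Upstream of the targets, *Notch1*, *Notch2* and *Rbpj* were abundant, while *Hes1* and *Hes5* were scarce. *Notch1* was at 1491 ± 92.5 and 1422 ± 199 CPM in 1MO and 3MO CLPs and 600 ± 94.6 and 623 ± 106 CPM in the MPPs (SD, n = 3). It was the 1 receptor of 4 that edgeR called, beside 13.3% of all tested genes, higher in CLPs (log2 fold change 1.25, standard error 0.12, adjusted p = 3.4e-06) and at -0.07 with age in CLPs (interval -0.42 to 0.29). Per kilobase, *Notch1* was at 72.7 and *Rbpj* at 13.2 CPM per kb over the 12 libraries, against 0.789 for *Hes1*. *Notch3* and *Notch4* were scarce too, at 0.380 and 0.216 CPM per kb, and DESeq2 also called *Notch4*, lower in CLPs, where edgeR gave -2.63 (adjusted p = 0.0836). *Rbpj* was at -0.06 with age in CLPs (interval -0.42 to 0.30, adjusted p = 0.989) and 0.10 in MPPs (interval -0.27 to 0.46, adjusted p = 1).

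**Figure D3:**
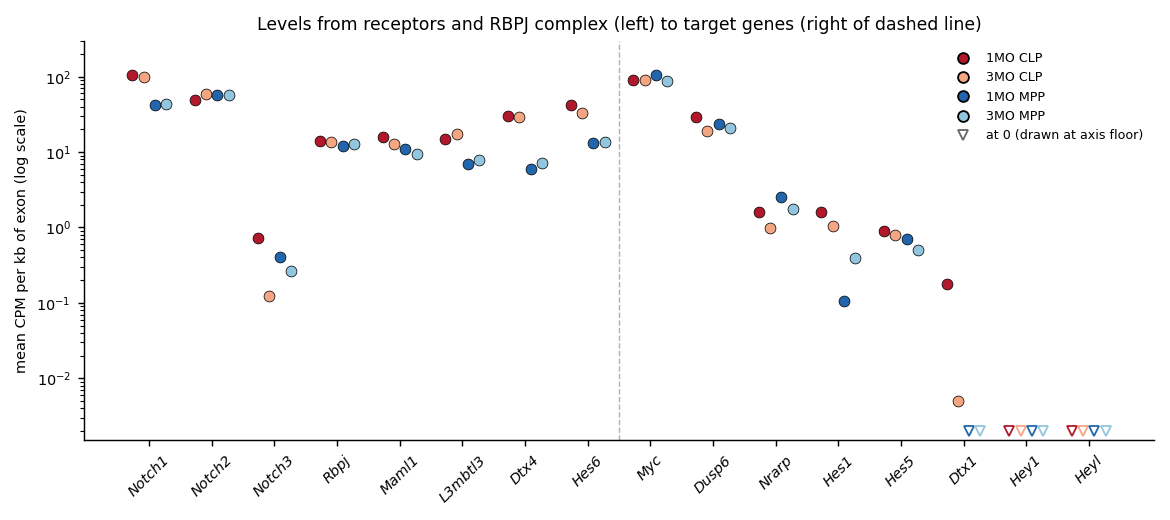
Mean CPM per kb of exon (log axis) of each group of 3 libraries for 8 genes of the Notch pathway on the left, and the 8 target genes to the right of the dashed line. Open triangles at the floor of the axis are means of 0. *Notch1* and *Notch2* lie between 42.1 and 105 CPM per kb, while *Hes1* and *Hes5* lie at or below 1.61.

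Elsewhere in the pathway, calls were made between the cell types. No gene of the receptor, ligand, processing, RBPJ complex, turnover, Groucho or family lists was called for age in CLPs or in MPPs by edgeR or DESeq2. The counts at an unadjusted p under 0.05 over the 59 tested genes of these 7 lists were 2 in CLPs and 2 in MPPs (3.39%), beside 5.9% and 3.48% of all genes. All were in the turnover list, with *Ccnc*, a cyclin of the kinase that marks Notch for destruction, at 1.12 in CLPs (adjusted p = 0.51). Between the cell types, 13 of the 59 were called (22%), beside 13.3% of all tested genes. Among them, 3 of 17 genes of the RBPJ complex were higher in CLPs, *L3mbtl3*, a corepressor of RBPJ (log2 fold change 1.13, adjusted p = 1.69e-05), and the coactivators *Maml3* (0.77, adjusted p = 0.00866) and *Maml1* (0.48, adjusted p = 0.0194). DESeq2 also called *Sin3a* (0.34 and adjusted p = 0.0884 in edgeR). *Tle3*, a Groucho corepressor that Hes proteins recruit, was higher as well (0.82, adjusted p = 0.000446), as was *Itch* (0.39, adjusted p = 0.0341), whereas *Nedd4* (-0.55, adjusted p = 0.00187) and the Notch-modifying glycosyltransferase *Mfng* (-0.78, adjusted p = 0.000654) were lower. Of the ligands, *Jag2* was the abundant one at 11.7 to 41.1 CPM, and *Dll4* was at 0 in all 6 CLP libraries, which allows up to 0.0342 CPM over them together, and at most at 1.59 CPM in MPPs. *Dll4* is 1 of the 13 calls, but it was kept by the low-count filter through 3 MPP libraries alone, so its direction was fixed by the filter and nothing is read from the call.

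No tested gene of the 8 passed the test for age in CLPs, and 1 other target did. Of 14 that the study displayed as targets, 9 were tested and 1, *Rag1*, was lower at 3MO in CLPs (log2 fold change -1.45, standard error 0.25, adjusted p = 0.0428, edgeR), beside 0.0748% of all genes. It encodes a subunit of the recombinase of antigen receptor genes and stands also in the B lineage marker list. Its partner *Rag2*, from the lymphoid progenitor markers, had a log2 fold change of -0.41 (adjusted p = 0.923). The study displayed those genes as known targets in the same CLP libraries, so their direction here is not independent of that display. Of the 9, 8 were below 0 with age in CLPs, with a median of -0.82, beside 51.2% of all genes and a median of -0.01. The 14 summed to 385 to 547 CPM in 1MO CLPs and 179 to 236 CPM in 3MO CLPs without overlap, sums of which *Rag1* alone made up to 326 CPM in a library. *Ccnd1*, a D cyclin, was at 80.1 ± 32.0 CPM in 1MO and 42.3 ± 9.44 CPM in 3MO CLPs (SD, n = 3; adjusted p = 0.578), and *Lgmn*, a lysosomal protease, had a log2 fold change of -0.82 (adjusted p = 0.891). Between the cell types 4 of the 9 were called, beside 13.3% of all tested genes, with *Rag1* and *Lgmn* higher in CLPs and *Hoxa10* and *Dusp1* lower (log2 fold changes 4.03, 2.03, -2.42 and -1.30). Of 8 T-lineage targets, 4 were tested and *Tcf7*, an early T-lineage transcription factor, was higher in CLPs (4.40, standard error 0.49, adjusted p = 1.44e-05), at 25.1 ± 4.98 and 14.8 ± 1.56 CPM in 1MO and 3MO CLPs and under 1 CPM on average in MPPs. DESeq2 also called *Lef1* (4.55 and adjusted p = 0.0626 in edgeR), which was at 0 in 5 libraries and at most at 2.16 CPM. The low-count filter can keep such genes through CLPs alone, so the direction of *Tcf7* and *Lef1* between the cell types is read with that limit. The change of *Tcf7* with age in CLPs was -0.77 (standard error 0.58, adjusted p = 0.918). The 8 T-lineage targets summed to 37.6 to 38.5 CPM in 1MO CLPs and 20.9 to 24.7 CPM in 3MO CLPs without overlap. *Tcf7* alone made up to 30.6 CPM in a library, and 0 of the 4 tested were called for age in CLPs.

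The replicate number, which the labels attach to every library, went with the levels of *Hes5*, a pattern chosen after the values were seen. The 4 libraries numbered 3, one in each group, were at 1.51 to 2.06 CPM, and the other 8 were at 0 to 1.24 CPM, a separation that 0.464% of all tested genes showed. The 4 libraries numbered 3 also had the highest levels of the hemoglobin gene *Hbb-bs*, at 29.8 to 52.2 CPM against 2.52 to 10.3 CPM in the other 8. The 10 erythroid markers, none at 0 in all libraries, summed to 51.8 to 183 CPM in 1MO CLPs, 61.1 to 124 in 3MO CLPs, 211 to 490 in 1MO MPPs and 215 to 356 in 3MO MPPs. *Fosb*, an immediate early gene that responds to cell handling, was at 60.2 to 211 CPM in the 4 libraries numbered 1 and 1.40 to 30.5 CPM in the others, a separation that 0.883% of all tested genes showed. The 14 immediate early genes summed to 795 to 1539 CPM in the libraries numbered 1 and 355 to 780 CPM in the others. *Dusp6* was at 40.6 to 78.9 CPM in the libraries numbered 1, 56.9 to 95.8 in those numbered 2 and 57.2 to 102 in those numbered 3. The part of erythroid RNA or of an immediate early response in these values was not tested. The labels do not say that equal numbers share an experiment. Without the 4 libraries numbered 3, the *Dusp6* change with age in CLPs was -0.51 (adjusted p = 1, edgeR), and without those numbered 1 it was -0.79 (adjusted p = 0.325).

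**Figure D4:**
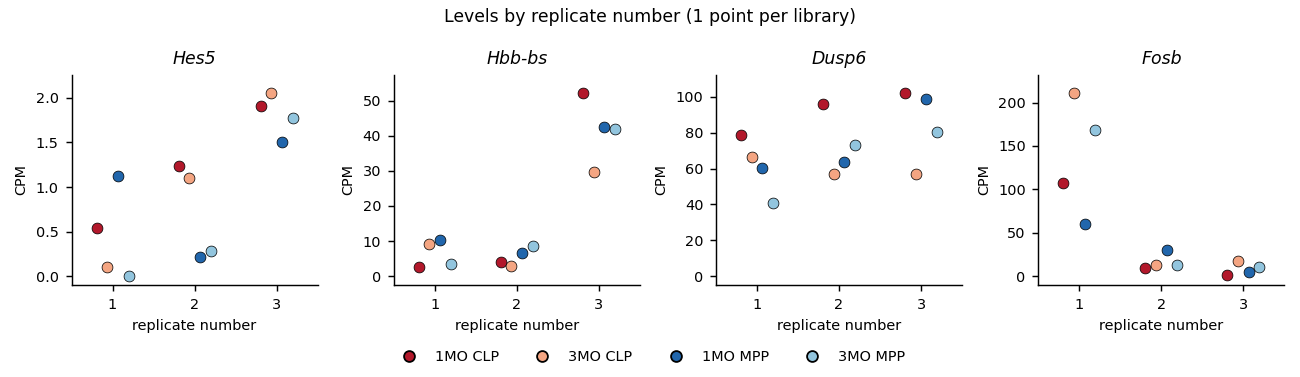
CPM of *Hes5*, *Hbb-bs*, *Dusp6* and *Fosb* (panels, linear axes) by replicate number, with 1 point per library coloured by group. All 4 points of *Hes5* and *Hbb-bs* at number 3 lie above the other 8, and all 4 points of *Fosb* at number 1 lie above the other 8.

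Some pairs of target genes varied together within a cell type and others did not. Over the 6 libraries of a cell type, Pearson's r of log2 CPM between *Nrarp* and *Dusp6* was 0.85 in CLPs and -0.28 in MPPs, between *Hes5* and *Dusp6* 0.18 and 0.80, and between *Hes1* and *Myc* -0.72 and -0.34. Spearman's rho for these pairs was 0.94 and -0.09, 0.14 and 0.77, and -0.66 and -0.54. The other 7 of the 10 pairs had r between -0.39 and 0.48 in CLPs and between -0.34 and 0.47 in MPPs. These are descriptions, and the points share age and replicate number. The genes with the pattern most like each target over all 12 libraries were not Notch genes. They were *Klhdc2*, *Emc3* and *Lin37* for *Hes1* (r = 0.85 to 0.88), *Zranb2*, *Cetn3* and *Spryd4* for *Hes5* (0.93 to 0.96), and *Prdm1*, *Padi1* and *Kctd9* for *Nrarp* (0.90 to 0.91). For *Myc* they were *Fam71e1*, *Plekhf1* and *Fam131a* (0.84 to 0.92), and for *Dusp6* *Nedd8*, *Snrpe* and *Ndufv3* (0.92). They are the 3 highest values among all other tested genes, and *Prdm1*, *Padi1*, *Fam71e1*, *Plekhf1* and *Fam131a* averaged under 2 CPM.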

How the data were processed

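The authors sorted lineage-depleted BM cells, prepared libraries from polyadenylated RNA with a directional kit, and ran the reads through an nf-core workflow with FastQC, UMI-tools, Trim Galore, SortMeRNA, STAR, Salmon and DESeq2, with mm10 as the build in the submitters' notes. The deposited values are estimated counts of each gene, corrected for transcript length and not for depth. All 12 columns matched samples by name, and 0 were left over. Whether the reads were single-end or paired-end is given in 2 ways in the sources.

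Rounded to whole numbers, the counts were fitted in R 4.3.3 with edgeR 4.0.16 (limma 3.58.1): filterByExpr, TMM scaling, and the quasi-likelihood test with the 4 groups in one model. The comparisons were 3MO against 1MO in CLPs and in MPPs, the difference of these 2, and CLPs against MPPs averaged over the ages. P-values were adjusted over 13367 genes by Benjamini-Hochberg, with a threshold of 0.05, and all tests were two-sided. Intervals are 95% intervals from the fit. CPM were computed after TMM scaling. CPM per kb were divided by the exon length of GENCODE M21 (GRCm38), which held 32158 of the 32285 genes and is not the length that Salmon used. Levels near 3 counts in a library, or 0.148 to 0.329 CPM, were taken as the detection limit. Log2 CPM for correlations had a prior count of 2. Promoter windows were searched on both strands.

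All 8 genes are named, with every gene edgeR called of each list of pathway, target, partner, growth and feedback genes and otherwise the 3 of smallest p for age in CLPs, of which the text gives some, and the 3 genes most like each tested target. Cell type marker lists are given by counts and sums with examples. Other genes were chosen after their values were seen. The members and lists were chosen with earlier results of these data known. Alternatives were DESeq2 1.42.0 size factors, its Wald test, no filter, a minimum of 10 counts per library, a block of replicate number, fits of 6 libraries, each library left out, and, chosen after seeing the data, the libraries numbered 1 or 3 left out. The scripts were tested on simulated data.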

Additional observations from a re-analysis of the deposited data

How the results depend on the processing

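The numbers of genes called over the whole table moved with the settings. For age in CLPs, 10 genes were called, against 46 without a filter, 4 with at least 10 counts in every library, 57 with DESeq2, 4 in the fit of the 6 CLP libraries, 5 without the libraries numbered 1 and 2 without those numbered 3, and 6 to 10 with 1 library left out. For age in MPPs, 3 became 26 without a filter, 1 with at least 10 counts, 32 with DESeq2, 1 without the libraries numbered 3, and 3 to 5 with 1 library left out. For the difference of the age effects, 0 became 6 without a filter, 6 with DESeq2, 1 without the libraries numbered 3, and 0 to 1 with 1 library left out. CLPs against MPPs gave 1772 genes, 865 without the libraries numbered 3, and 1377 to 1782 with 1 library left out. The 2 settings that leave out a number were chosen after seeing the data, and they test fewer libraries. Of 326 values of the 5 tested genes under alternatives, 301 kept their direction and side of the threshold, 24 changed sign and 1 passed the threshold (*Hes1* between the cell types with DESeq2). Not all sign changes were near 0. For *Nrarp*, with 27 to 130 counts in each library, the difference of the age effects turned in 4 of 12 fits with 1 library left out. Without the libraries numbered 1, *Hes5* was at 0.017 in CLPs, 0.22 in MPPs and -0.21 for their difference, and *Dusp6* at -0.067 between the cell types. Without those numbered 3, *Hes1* was at 0.61 and *Myc* at -0.11 with age in CLPs. With 1 library left out, the log2 fold change with age in CLPs ranged from -2.08 to 0.083 for *Hes1*, from -0.99 to 0.35 for *Hes5* and from -0.073 to 0.113 for *Myc*. With age in MPPs it ranged from -2.59 to 0.10 for *Hes5* and from -0.39 to 0.061 for *Dusp6*. The difference ranged from -0.53 to 2.42 for *Hes5* and from -0.51 to 0.39 for *Nrarp*, and CLPs against MPPs from -0.022 to 0.231 for *Dusp6*. The cause of these changes was not tested. Where a group was left with 2 libraries, the spread was shared with the other groups. With at least 10 counts in every library, *Hes1* and *Hes5* could not be fitted.

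Equal replicate numbers were not taken as pairs. The correlation of same-numbered libraries in their deviations from the group means was 0 to 0.114 between the ages in CLPs and -0.013 to 0.213 in MPPs, and between the cell types -0.034 to 0.204 at 1MO and 0.01 to 0.089 at 3MO. In 22 of 36 cases a library correlated best with its own number among the 3 of another group, where unrelated numbers would give 12 on average. The sample numbers in the column names also keep the libraries of one replicate number together, over all groups. These are hints, and the sources do not state a pairing. The study sorted cells per mouse, but the sources do not say that equal numbers share a mouse. With the replicate block, 11 genes were called for age in CLPs, 3 for age in MPPs, 0 for the difference and 1979 between the cell types, or 1842 with the libraries of one age and number as pairs. The block changed no call of the 5 target genes.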
